A study of Mus musculus with 9 samples.

Results

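Interferon-stimulated genes are switched on when a cell responds to interferon. A list of 44 such genes and factors of the interferon pathway, chosen by name, is described here in the brain of an accelerated-aging mouse. It includes the receptor chains Ifnar1 and Ifnar2, and the whole list is called interferon-stimulated genes for short. On the arrays 43 of the 44 genes were measured, among 19505 genes in all, and 1 transcript stood for each. Ifi44 had no transcript under its symbol or gene ID in the annotation used here. There were 3 groups with 3 Clariom S Mouse arrays each: water-treated SAMR1 mice, water-treated SAMP8 mice, and SAMP8 mice that received TFQA (3,4,5-tri-feruloylquinic acid, a synthetic ester of quinic acid) at 1 mg/kg by oral gavage for 37 days. All mice were male and were taken into the study at 6 months of age, ahead of the 37 days. SAMP8, the senescence-accelerated mouse prone 8, is an inbred strain known for early deficits of learning and memory, and SAMR1, the senescence-accelerated mouse resistant 1, is its usual control strain and ages normally. The strains differ in many genes, and TFQA was given to SAMP8 mice only, so that no comparison here separates the strain from 1 gene or shows TFQA in SAMR1 mice.

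Type I interferons bind a receptor made of IFNAR1 and IFNAR2, whose kinases JAK1 and TYK2 activate STAT2 among other factors. STAT2 and IRF9 are part of a complex that binds the interferon-stimulated response element (ISRE) in the promoters of its target genes. Many of the targets bind viral RNA, block viral entry or mark proteins for modification, and microglia, endothelial cells, astrocytes and neurons of the brain can all express some of them. Raised expression of such genes has been described in the aging brain and choroid plexus of mice.

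The deposited values were log2 signals, 1 per transcript and array, for 22206 transcripts. The median of an array was 6.76 to 6.81, and pairs of arrays correlated at 0.9876 to 0.9934. Among the 43 genes, 24 were in the dimmest 40% of transcripts. These include Irf7, Zbp1, Oas1a, Oas1g, Oas2, Bst2, Gbp3, Isg15, Parp9, Parp14, Rtp4 and Lgals3bp, whose values are given below. The methods name the hippocampus as the source of the RNA, whereas the labels name brain and neural stem cells. The mean log2 signal of 9 hippocampal neuron markers was 10.15 to 10.99, that of 7 markers of neural stem cells and newborn neurons 7.21 to 7.54 and that of 5 oligodendrocyte markers 10.88 to 12.25, so that transcripts of mature brain cells were present on every array. One array stood apart in another region's markers: 6 striatal neuron markers had a score of 3.77 in SAMP8 TFQA replicate 2 and of -1.04 to 0.91 elsewhere, where a score is the mean log2 deviation from each gene's own mean over the 9 arrays. The differences that no longer passed a threshold without it are given without it beside the gene. Neither the methods nor the labels say that a group's arrays stem from different mice, and p-values therefore cover the spread among these samples only, which may be technical. In bulk RNA, fewer cells of a type and less RNA per cell cannot be told apart.

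The promoters of these genes carried the letters of the ISRE more often than promoters at large. Promoter sequences from RefSeq (GRCm38.p6), 250 bases before to 50 after a start position, were found for 33 of the 44 genes, with 39 promoters. At some genes, such as Ifit3 and Ifit3b, that position lies inside the outer bounds of the gene. The letters GAAA, followed after any 2 bases by GAAA again and read on either strand, occurred in 17 of these 39 promoters (43.6%), and in 3.44% of the 32851 promoters of all genes. The letters TTCNNNGAA of the gamma-activated site, a second interferon-responsive element, occurred in 10 of the 39 (25.6%) and in 8.3% of all. The windows around the ISRE letters are shown for some of the genes with a match that passed a threshold in at least 1 comparison, with Isg15 among them as a standard marker of the interferon response. Capitals mark the ISRE letters, on the strand of the gene, so that TTTC, 2 bases and TTTC are the same element on the opposite strand, and adjoining runs of capitals are overlapping matches.
Oas1a: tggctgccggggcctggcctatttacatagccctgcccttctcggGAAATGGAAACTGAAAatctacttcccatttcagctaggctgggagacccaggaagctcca
Oas1g: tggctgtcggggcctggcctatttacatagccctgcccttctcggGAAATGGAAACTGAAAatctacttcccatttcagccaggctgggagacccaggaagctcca
Ifit3: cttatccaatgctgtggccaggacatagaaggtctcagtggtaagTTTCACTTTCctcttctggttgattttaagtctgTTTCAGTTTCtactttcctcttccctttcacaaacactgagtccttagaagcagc
Ifitm2: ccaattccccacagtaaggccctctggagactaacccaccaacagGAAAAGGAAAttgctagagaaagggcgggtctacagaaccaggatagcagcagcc
Ifitm3: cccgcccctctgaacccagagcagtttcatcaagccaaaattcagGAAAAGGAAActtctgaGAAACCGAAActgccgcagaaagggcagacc
Gbp3: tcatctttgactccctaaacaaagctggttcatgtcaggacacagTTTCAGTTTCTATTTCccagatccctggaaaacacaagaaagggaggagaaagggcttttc
Isg15: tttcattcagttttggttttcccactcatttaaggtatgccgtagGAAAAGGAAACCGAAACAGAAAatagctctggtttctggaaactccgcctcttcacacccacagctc

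These windows lie at chr5:120907485-120907590 (Oas1a, minus strand), chr5:120887571-120887676 (Oas1g, minus strand), chr19:34583328-34583461 (Ifit3, plus strand), chr7:140955953-140956052 (Ifitm2, minus strand), chr7:141010695-141010787 (Ifitm3, minus strand), chr3:142559954-142560059 (Gbp3, plus strand) and chr4:156200830-156200941 (Isg15, minus strand). The same 134 letters as at Ifit3 stand at chr19:34607724-34607857 in the promoter of Ifit3b. Whole promoters were 94.2% identical between Ifit3 and Ifit3b, 86.1% between Oas1a and Oas1g, and 57.5% between Ifitm2 and Ifitm3 in aligned positions. Ifit3 and Ifit3b, like Oas1a and Oas1g, are near copies of each other, and how the array's probes divide their signal is uncertain, although no 2 of the 43 transcripts had equal values on all arrays. A match is a description of the letters and does not show that a factor binds there.

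In SAMP8 water compared with SAMR1 water, most interferon-stimulated genes read higher, by small amounts. The log2 difference was positive in 35 of 43 genes and negative in 8, with a median of 0.21, where the median over all transcripts was -0.01. Oas1g, an oligoadenylate synthetase, rose 1.98-fold, and 0 genes fell at an adjusted p under 0.05 (limma, Benjamini-Hochberg over all transcripts). Of all transcripts 0.509% were called at that threshold. At the threshold of the study, which asks for a fold change over 1.1 and an unadjusted p under 0.05, 10 of the 43 genes were higher and 1 was lower, where 3.40% of all transcripts were higher and 2.70% lower. The arrays of both groups did not overlap in 10 genes that were higher and 2 that were lower, where the shares of all transcripts were 5.77% and 6.04%. Without SAMP8 water replicate 2, the array with the highest level of these genes, 7 passed the study's threshold in place of 11. Then 29 genes were positive and 14 negative. Of all transcripts, 673 were then higher and 533 lower at that threshold, in place of 754 and 599.

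**Figure D1:**
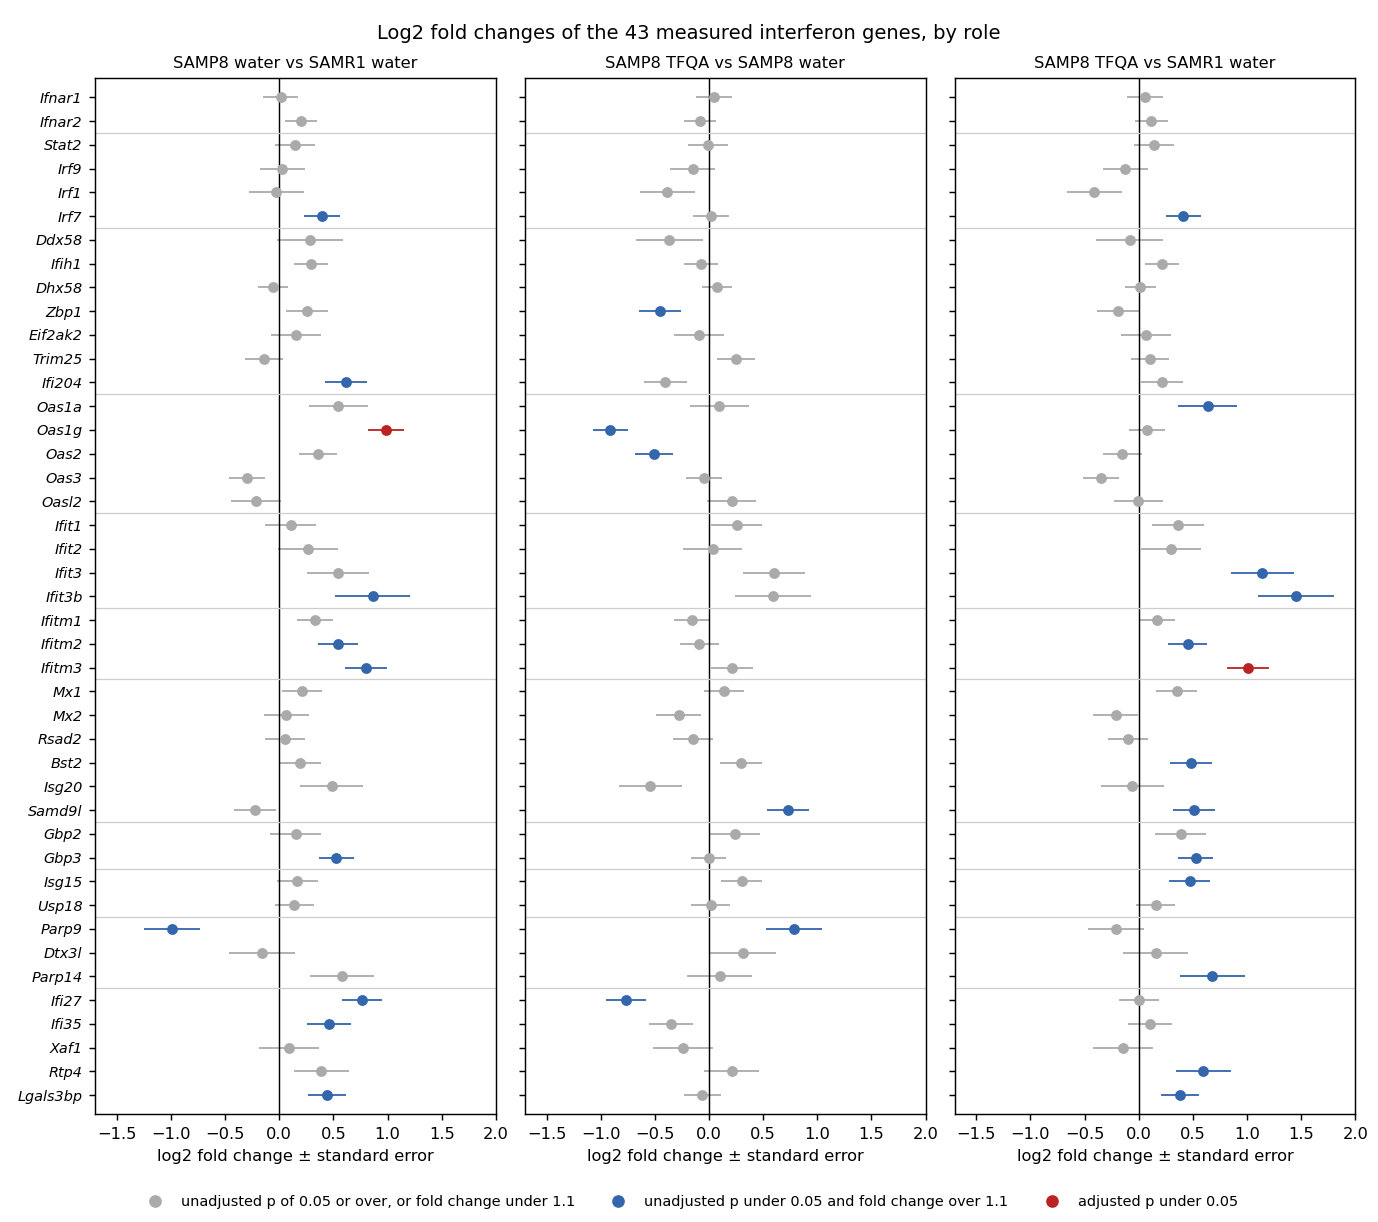
Log2 fold change of the 43 measured interferon-stimulated genes (points) with its standard error (lines) in the 3 comparisons, by role from the receptors at the top to other induced genes at the bottom. Most points lie right of 0 in SAMP8 water vs SAMR1 water, 35 of 43, whereas in SAMP8 TFQA vs SAMP8 water 21 lie on each side and Gbp3 at 0. Red marks the adjusted test (Oas1g on the left, Ifitm3 on the right) and blue the study's threshold.

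In SAMP8 TFQA compared with SAMP8 water, the genes shared no direction. The log2 difference was positive in 21 and negative in 21 of the 43 genes, and 0 in Gbp3, with a median of 0.00 beside 0.01 over all transcripts. None was called by limma at an adjusted p under 0.05, the smallest being 0.488, and 0% of all transcripts were called. Without adjustment, 6 genes had a p under 0.05, and the same 6 passed the study's threshold. Samd9l and Parp9 were higher and Oas1g, Oas2, Ifi27 and Zbp1 were lower after TFQA, where 3.36% of all transcripts were higher and 3.76% lower. Arrays of the groups were apart in 2 genes that were higher and 4 that were lower, beside 5.89% and 5.91% of all transcripts. Without SAMP8 TFQA replicate 3, 10 genes passed the study's threshold in place of 6. Of all transcripts, 902 were then higher and 938 lower, in place of 746 and 834.

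In SAMP8 TFQA compared with SAMR1 water, 31 genes were positive and 12 negative, with a median of 0.16 beside -0.01 over all transcripts. Ifitm3, which blocks the entry of enveloped viruses, rose 2.02-fold, and 0 genes fell in limma's adjusted test, beside 0.576% of all transcripts called. At the study's threshold 13 genes were higher and 0 lower, beside 4.07% and 3.99% of all transcripts. Arrays of the groups were apart in 11 genes that were higher and 0 that were lower, beside 5.97% and 6.32%. Without SAMR1 water replicate 1, 7 genes passed the study's threshold, and without SAMR1 water replicate 2, 8 did. Of all transcripts, 816 were higher and 816 lower in the former fit and 770 and 810 in the latter, in place of 903 and 887. Each comparison shares its arrays with both others, so the values of a gene in the 3 comparisons are not independent of each other. SAMP8 water vs SAMR1 water is called the first comparison and SAMP8 TFQA vs SAMP8 water the second where a gene's values are given side by side.

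**Figure D2:**
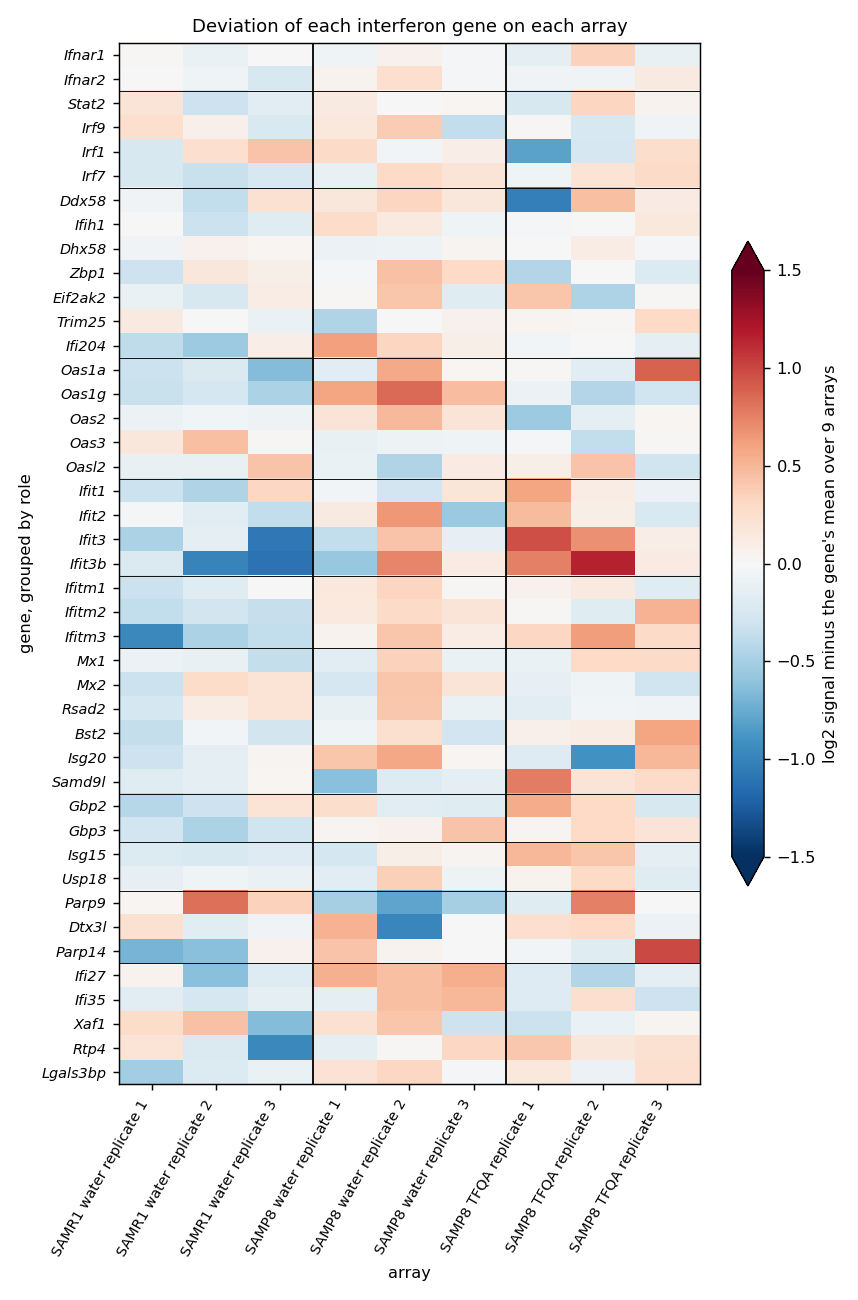
Deviation of each of the 43 genes (rows, by role) on each of the 9 arrays (columns) from the gene's mean over the arrays, in log2 units, red above and blue below. The rows of Oas1g and Ifi27 are reddest in the 3 SAMP8 water arrays, those of Ifitm3 and Gbp3 are red in all 6 SAMP8 arrays, and that of Parp9 is bluest in the 3 SAMP8 water arrays.

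The receptors differed little. Ifnar2 and Ifnar1, the chains of the type I interferon receptor, had log2 differences of 0.20 and 0.01 between SAMP8 water and SAMR1 water and of -0.08 and 0.05 between SAMP8 TFQA and SAMP8 water. The log2 signal of Ifnar2 was 11.56, 11.50 and 11.33 in SAMR1 water, 11.62, 11.82 and 11.55 in SAMP8 water and 11.52, 11.52 and 11.70 in SAMP8 TFQA. The groups overlapped in every comparison of both chains.

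Among the 4 transcription factors of the response, Irf7 stood out from the rest. Irf7, which drives the transcription of interferon alpha genes, read 2.59, 2.50 and 2.59 in SAMR1 water, 2.72, 3.13 and 3.02 in SAMP8 water and 2.76, 3.04 and 3.12 in SAMP8 TFQA. All 6 SAMP8 arrays were above the 3 SAMR1 arrays, but the transcript was among the dimmest 40% on the arrays. Its log2 difference was 0.40 (standard error 0.16, adjusted p = 0.750 in limma) for SAMP8 water vs SAMR1 water and 0.41 (standard error 0.16, adjusted p = 0.548) for SAMP8 TFQA vs SAMR1 water. It passed the study's threshold in 4 and in 6 of the 9 fits that left out 1 array, and the latter difference was 0.38 and did not pass without SAMP8 TFQA replicate 2. Stat2 and Irf9, which belong to the ISRE-binding complex, and Irf1, a factor induced by interferon gamma, had log2 differences of 0.15, 0.03 and -0.03 between SAMP8 water and SAMR1 water, and Irf1 had -0.38 after TFQA relative to SAMP8 water with an adjusted p of 0.780 in limma.

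Of the 7 nucleic acid sensors and their partners, 5 were positive in SAMP8 water vs SAMR1 water and 1, Ifi204, passed the study's threshold. Ifi204, a DNA-binding protein of the mouse Ifi200 family, read 6.18, 6.01 and 6.66 in SAMR1 water, 7.17, 6.88 and 6.65 in SAMP8 water and 6.52, 6.56 and 6.41 in SAMP8 TFQA. The SAMP8 water arrays were the highest but SAMR1 water replicate 3 lay within their range, and the TFQA arrays lay below all of them. A log2 difference of 0.62 (standard error 0.20, adjusted p = 0.453 in limma) was found in SAMP8 water vs SAMR1 water and of -0.40 (standard error 0.20, adjusted p = 0.712) in SAMP8 TFQA vs SAMP8 water.

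Zbp1, a sensor of left-handed nucleic acids that can trigger cell death, read 5.17, 5.65 and 5.57 in SAMR1 water, 5.46, 5.92 and 5.78 in SAMP8 water and 5.04, 5.49 and 5.28 in SAMP8 TFQA. The ranges of the SAMP8 groups overlapped, and the log2 difference after TFQA was -0.45 (standard error 0.19, adjusted p = 0.676 in limma). It passed the study's threshold in 5 of the 9 fits that left out 1 array. The cytosolic RNA sensors Ddx58, Ifih1 and Dhx58 had log2 differences of 0.28, 0.29 and -0.06 in SAMP8 water vs SAMR1 water. Eif2ak2, the kinase PKR, had 0.16 and Trim25, a ubiquitin ligase that activates the product of Ddx58, had -0.14. Ddx58 read 4.89 in SAMP8 TFQA replicate 1 and 5.54 to 6.36 on the other arrays.

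The oligoadenylate synthetases make a messenger that activates RNase L, which cleaves viral and cellular RNA. Their members differed among themselves: in SAMP8 water vs SAMR1 water 3 of 5 were positive and 2 negative, and only Oas1g passed the adjusted test. The genes Oas1a, Oas1g, Oas2 and Oas3 lie together on chromosome 5 between 120730333 and 120907544 of GRCm38.p6. Oas1g (120876142 to 120887613) read 4.45, 4.52 and 4.31 in SAMR1 water, 5.37, 5.63 and 5.24 in SAMP8 water and 4.69, 4.34 and 4.48 in SAMP8 TFQA. The SAMP8 water arrays were above all 6 others, and the TFQA and SAMR1 arrays overlapped. Its log2 difference was 0.99 (standard error 0.16, adjusted p = 0.0159 in limma) in SAMP8 water vs SAMR1 water. It was -0.91 (standard error 0.16, adjusted p = 0.488) in SAMP8 TFQA vs SAMP8 water, with an unadjusted p of 0.000125 in limma, and 0.08 (adjusted p = 0.944) in SAMP8 TFQA vs SAMR1 water.

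The call of Oas1g in SAMP8 water vs SAMR1 water depended on single arrays. In limma its adjusted p was 0.0695, 0.0502 and 0.103 without SAMR1 water replicate 1, 2 or 3 and 0.0684 and 0.0923 without SAMP8 water replicate 1 or 2. It stayed under 0.05 without SAMP8 water replicate 3 or any TFQA array. The log2 difference itself was between 0.88 and 1.07 in all 16 alternatives that kept the gene, and it passed the study's threshold in each. One-way ANOVA without moderation gave an adjusted p of 0.278. Its transcript was among the dimmest 40% and so could not be called where those were left out. Of 9 measured genes within 200 kb of Oas1g that are no members, 0 passed the study's threshold in that comparison.

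Oas2, another enzyme of the cluster, was also highest in SAMP8 water, at a lower amplitude. It read 4.12, 4.17 and 4.13 in SAMR1 water, 4.40, 4.70 and 4.40 in SAMP8 water and 3.66, 4.07 and 4.24 in SAMP8 TFQA. The SAMP8 water arrays were again above all others, and the log2 differences were 0.36 (standard error 0.18, adjusted p = 0.830 in limma) in SAMP8 water vs SAMR1 water and -0.51 (standard error 0.18, adjusted p = 0.587) in SAMP8 TFQA vs SAMP8 water. The latter passed the study's threshold in 7 of the 9 fits that left out 1 array. Oas1a, the near copy of Oas1g, was instead highest on average in SAMP8 TFQA. It read 4.0, 4.10 and 3.67 in SAMR1 water, 4.16, 4.89 and 4.35 in SAMP8 water and 4.33, 4.15 and 5.20 in SAMP8 TFQA. Its difference of 0.64 (standard error 0.27, adjusted p = 0.588 in limma) in SAMP8 TFQA vs SAMR1 water was 0.32 without SAMP8 TFQA replicate 3. Oas3 and Oasl2, further genes of the family, were at -0.30 and -0.21 in SAMP8 water vs SAMR1 water, and the Oas3 arrays of these groups did not overlap.

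**Figure D3:**
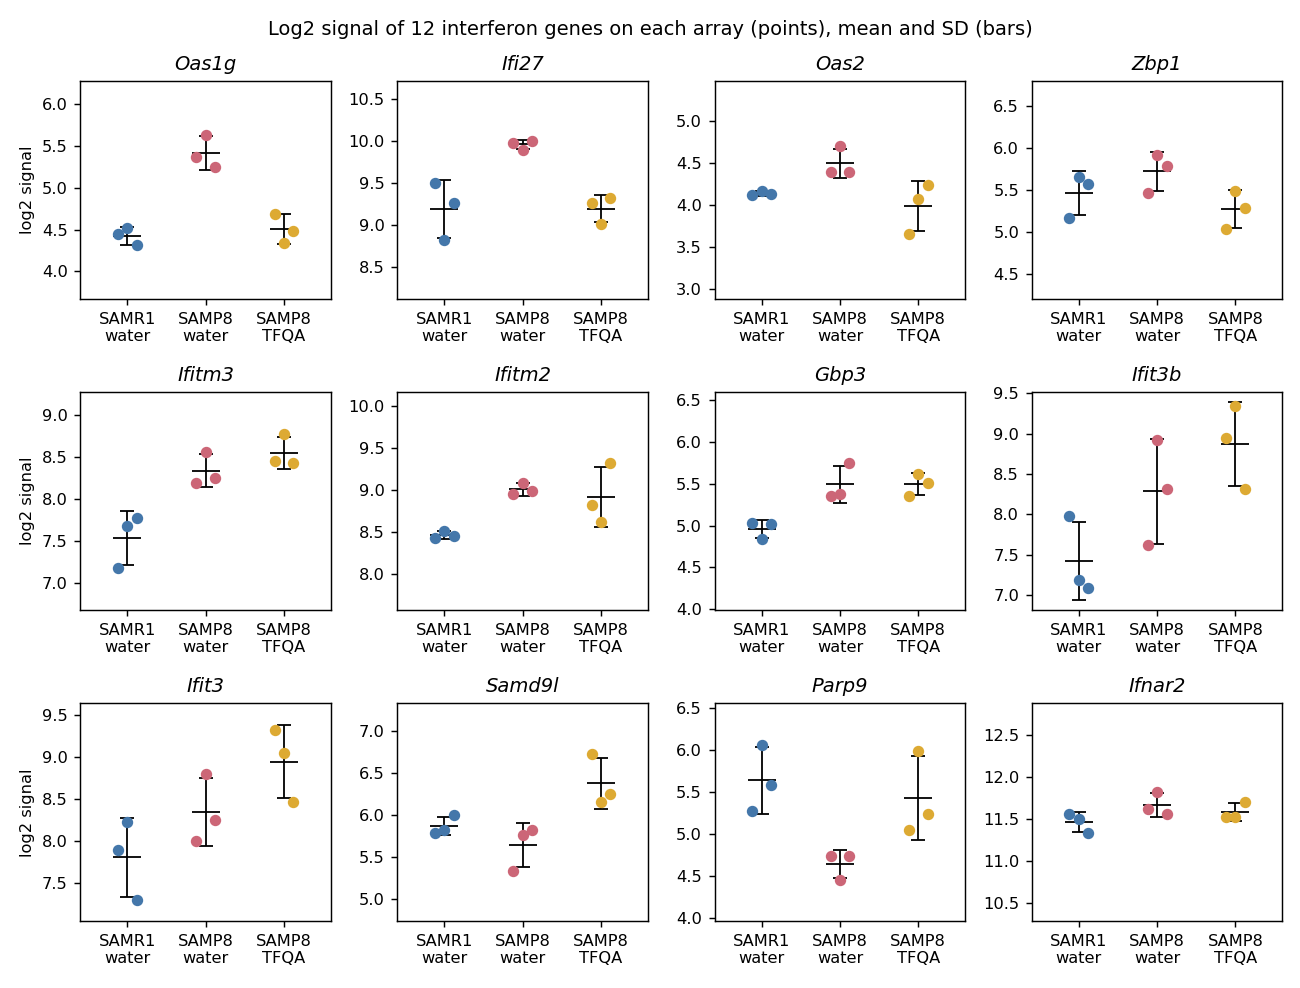
Log2 signal of 12 interferon genes on each array (points), with the mean (horizontal mark) and SD (bars) of the 3 arrays of a group. Vertical ranges differ between panels and do not start at 0. Oas1g, Ifi27 and Oas2 are highest in SAMP8 water, Ifitm3, Ifitm2 and Gbp3 are above SAMR1 water in both SAMP8 groups, Ifit3 and Ifit3b are highest on average in SAMP8 TFQA, and Parp9 is lowest in SAMP8 water.

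The IFIT genes, whose proteins bind foreign RNA and block its translation, were positive in 4 of 4 cases in each comparison. They lie on chromosome 19 between 34550550 and 34650009. Ifit3b read 7.98, 7.19 and 7.09 in SAMR1 water, 7.62, 8.92 and 8.31 in SAMP8 water and 8.95, 9.35 and 8.32 in SAMP8 TFQA. Its TFQA arrays were all above the SAMR1 arrays, whereas SAMP8 water overlapped with both groups. In log2 terms the difference was 0.86 (standard error 0.35, adjusted p = 0.708 in limma) in SAMP8 water vs SAMR1 water and 0.59 (standard error 0.35, adjusted p = 0.751) in SAMP8 TFQA vs SAMP8 water. It was 1.45 (standard error 0.35, adjusted p = 0.138) in SAMP8 TFQA vs SAMR1 water, the widest positive difference of any of the 43 genes.

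Ifit3 read 7.89, 8.23 and 7.30 in SAMR1 water, 8.00, 8.80 and 8.25 in SAMP8 water and 9.33, 9.05 and 8.47 in SAMP8 TFQA. The order of the groups was that of Ifit3b, with log2 differences of 0.54, 0.60 and 1.14 (standard error 0.29 each, the last with an adjusted p of 0.167 in limma). In SAMP8 TFQA vs SAMR1 water both genes passed the study's threshold in 9 of 9 fits that left out 1 array. In SAMP8 water vs SAMR1 water Ifit3b did so in 5 of 9, and was at 0.55 without SAMP8 water replicate 2. Ifit1 had log2 differences of 0.11 and 0.26 in the first and second comparison and Ifit2 of 0.26 and 0.03.

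The IFITM genes encode membrane proteins that hinder the fusion of viruses with the cell, and all 3 were above SAMR1 water in the SAMP8 water arrays, with no overlap. They lie on chromosome 7 between 140954837 and 141010744, and Irf7 lies further along at 141263183 to 141266499. Ifitm3 read 7.17, 7.67 and 7.77 in SAMR1 water, 8.19, 8.56 and 8.25 in SAMP8 water and 8.45, 8.77 and 8.43 in SAMP8 TFQA. All 6 SAMP8 arrays were above the SAMR1 arrays, and the SAMP8 groups overlapped. On the log2 scale the difference was 0.80 (standard error 0.19, adjusted p = 0.174 in limma) in SAMP8 water vs SAMR1 water, 1.01 (standard error 0.19, adjusted p = 0.0395) in SAMP8 TFQA vs SAMR1 water and 0.22 (standard error 0.19, adjusted p = 0.837) in SAMP8 TFQA vs SAMP8 water.

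The call of Ifitm3 in SAMP8 TFQA vs SAMR1 water ended without any of 8 arrays. The adjusted p in limma was 0.152, 0.0918 and 0.0622 without SAMR1 water replicate 1, 2 or 3, 0.0643 and 0.0675 without SAMP8 water replicate 1 or 3, and 0.108, 0.153 and 0.0935 without SAMP8 TFQA replicate 1, 2 or 3. It was 0.0891 in a fit of only these 2 groups, 0.0554 with array weights and 0.622 in a one-way ANOVA. The log2 difference stayed between 0.83 and 1.13 in all alternatives, each past the study's threshold. Of 21 measured genes within 200 kb that are no members, Zfp941 was higher and Ric8a lower at the study's threshold in SAMP8 TFQA vs SAMR1 water, both named after their values were seen, and 0 passed it in SAMP8 water vs SAMR1 water.

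Ifitm2 read 8.43, 8.52 and 8.45 in SAMR1 water, 8.95, 9.09 and 8.99 in SAMP8 water and 8.82, 8.62 and 9.32 in SAMP8 TFQA. Its SAMP8 arrays were all above the SAMR1 arrays, with a log2 difference of 0.54 (standard error 0.18, adjusted p = 0.513 in limma) in SAMP8 water vs SAMR1 water and of 0.45 (standard error 0.18, adjusted p = 0.551) in SAMP8 TFQA vs SAMR1 water. The latter was 0.25 without SAMP8 TFQA replicate 3. Ifitm1 had a log2 difference of 0.33 between the water groups and of -0.16 after TFQA relative to SAMP8 water.

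Among 6 further antiviral effectors, 0 passed the study's threshold in SAMP8 water vs SAMR1 water, and Samd9l was higher after TFQA. Samd9l, which restrains cell growth and poxvirus replication, read 5.79, 5.83 and 6.00 in SAMR1 water, 5.34, 5.77 and 5.83 in SAMP8 water and 6.73, 6.16 and 6.25 in SAMP8 TFQA. The TFQA arrays were above all 6 water arrays of both strains. This amounted to a log2 difference of 0.73 (standard error 0.19, adjusted p = 0.561 in limma) relative to SAMP8 water and 0.51 (standard error 0.19, adjusted p = 0.535) relative to SAMR1 water, and the former passed the study's threshold in 9 of 9 fits that left out 1 array.

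Bst2, the protein tetherin that holds budding virus at the cell surface, read 4.71, 5.02 and 4.79 in SAMR1 water, 5.0, 5.31 and 4.78 in SAMP8 water and 5.14, 5.18 and 5.66 in SAMP8 TFQA. SAMP8 water overlapped with both other groups, and the log2 difference of SAMP8 TFQA from SAMR1 water was 0.49 (standard error 0.19, adjusted p = 0.551 in limma) with all arrays and 0.32 without SAMP8 TFQA replicate 3. The dynamin-like GTPases Mx1 and Mx2 had log2 differences of 0.21 and 0.07 in SAMP8 water vs SAMR1 water. Rsad2, the protein viperin, had 0.05, and the exonuclease Isg20 had 0.48 (standard error 0.29, adjusted p = 0.903 in limma) in that comparison and -0.54 in SAMP8 TFQA vs SAMP8 water.

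Gbp3, a guanylate-binding protein, was higher in both SAMP8 groups by the same amount. It read 5.03, 4.84 and 5.02 in SAMR1 water, 5.35, 5.38 and 5.74 in SAMP8 water and 5.35, 5.61 and 5.51 in SAMP8 TFQA. All 6 SAMP8 arrays were above the SAMR1 arrays, with a log2 difference of 0.53 (standard error 0.16) in each case and an adjusted p in limma of 0.418 for SAMP8 water and 0.353 for SAMP8 TFQA. It passed the study's threshold in 9 of 9 fits that left out 1 array in both comparisons. Its neighbour Gbp2 had log2 differences of 0.15 in SAMP8 water vs SAMR1 water and 0.24 in SAMP8 TFQA vs SAMP8 water.

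Isg15, a ubiquitin-like protein joined to other proteins in the interferon response, read 3.88, 3.86 and 3.89 in SAMR1 water, 3.82, 4.18 and 4.13 in SAMP8 water and 4.59, 4.50 and 3.95 in SAMP8 TFQA. The TFQA arrays were above the SAMR1 arrays but SAMP8 water replicate 1 was the lowest of all 9. A log2 difference of 0.47 (standard error 0.19, adjusted p = 0.551 in limma) separated SAMP8 TFQA from SAMR1 water, and it passed the study's threshold in 4 of 9 fits that left out 1 array. Without SAMP8 TFQA replicate 2 it was 0.39 and did not pass. Usp18, which removes ISG15 from proteins and dampens receptor signalling, had log2 differences of 0.14 and 0.02 in the first and second comparison.

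Parp9, whose transcript was among the dimmest 40% on the arrays, was lowest in SAMP8 water. Parp9, an ADP-ribosyltransferase that acts with the ubiquitin ligase DTX3L, read 5.27, 6.06 and 5.58 in SAMR1 water, 4.74, 4.45 and 4.74 in SAMP8 water and 5.05, 5.99 and 5.24 in SAMP8 TFQA. The SAMP8 water arrays were below all 6 others. The log2 difference was -0.99 (standard error 0.26, adjusted p = 0.216 in limma) in SAMP8 water vs SAMR1 water, the most negative of the 43 genes, and 0.78 (standard error 0.26, adjusted p = 0.567) in SAMP8 TFQA vs SAMP8 water, the most positive of that comparison. The former passed the study's threshold in 9 of 9 fits that left out 1 array. The latter was 0.50 without SAMP8 TFQA replicate 2, the array with the high striatal score, and no longer passed.

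The genes of Parp9 (35938470 to 35972621) and Dtx3l (35926515 to 35939027) overlap at their ends on chromosome 16, and Parp14 lies beside them. Dtx3l had log2 differences of -0.16 and 0.31 in the first and second comparison. Parp14, which adds single ADP-ribose units, read 4.92, 4.99 and 5.68 in SAMR1 water, 6.05, 5.67 and 5.61 in SAMP8 water and 5.58, 5.44 and 6.61 in SAMP8 TFQA. SAMR1 water replicate 3 lay within the range of both SAMP8 groups. The difference of SAMP8 TFQA from SAMR1 water was 0.68 (standard error 0.30, adjusted p = 0.605 in limma), and 0.31 without SAMP8 TFQA replicate 3.

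Ifi27, an interferon alpha-induced membrane protein, was highest in SAMP8 water. It read 9.50, 8.82 and 9.26 in SAMR1 water, 9.98, 9.90 and 10 in SAMP8 water and 9.26, 9.01 and 9.32 in SAMP8 TFQA. The SAMP8 water arrays lay close together and above all 6 others, and the other groups overlapped. The log2 difference was 0.77 (standard error 0.19, adjusted p = 0.167 in limma) in SAMP8 water vs SAMR1 water, -0.76 (standard error 0.19, adjusted p = 0.561) in SAMP8 TFQA vs SAMP8 water and 0.00 in SAMP8 TFQA vs SAMR1 water. Both of the former passed the study's threshold in 9 of 9 fits that left out 1 array and in 17 of 17 alternatives.

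Of the rest, Ifi35, a partner of the interferon-induced protein NMI, read 6.28, 6.19 and 6.31 in SAMR1 water, 6.31, 6.90 and 6.94 in SAMP8 water and 6.26, 6.70 and 6.14 in SAMP8 TFQA. SAMP8 water replicate 1 read like SAMR1 water, and the log2 difference of 0.46 (standard error 0.20, adjusted p = 0.806 in limma) passed the study's threshold in 3 of 9 fits that left out 1 array. Lgals3bp, a secreted glycoprotein that binds galectins, read 5.30, 5.62 and 5.72 in SAMR1 water, 6.04, 6.13 and 5.79 in SAMP8 water and 5.98, 5.73 and 6.07 in SAMP8 TFQA. All 6 SAMP8 arrays were above the SAMR1 arrays. Differences on the log2 scale were 0.44 (standard error 0.17, adjusted p = 0.686 in limma) in SAMP8 water and 0.38 (standard error 0.17, adjusted p = 0.617) in SAMP8 TFQA relative to SAMR1 water, and these passed the study's threshold in 6 and in 2 of the 9 fits.

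Rtp4, a chaperone of cell surface receptors, read 5.31, 4.89 and 4.14 in SAMR1 water, 4.96, 5.12 and 5.42 in SAMP8 water and 5.51, 5.28 and 5.34 in SAMP8 TFQA. The 3 SAMR1 arrays were far apart, and the difference of SAMP8 TFQA from SAMR1 water, 0.60 (standard error 0.25, adjusted p = 0.586 in limma), was 0.28 without SAMR1 water replicate 3. It was 0.65 without SAMP8 TFQA replicate 2 and did not pass the study's threshold in either case. Xaf1, a protein that promotes apoptosis, had log2 differences of 0.09 and -0.24 in the first and second comparison.

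A score of all 43 genes describes each array. This score, the mean log2 deviation over the genes, ranged from -0.17 to -0.14 for SAMR1 water, from 0.03 to 0.20 for SAMP8 water and from 0.04 to 0.09 for SAMP8 TFQA. The SAMR1 arrays were the lowest and the SAMP8 groups overlapped.

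Markers of endothelial cells, border macrophages and meningeal fibroblasts also had higher scores in every SAMP8 water array than in every SAMR1 water array. In SAMP8 water vs SAMR1 water, log2 differences were positive in 9 of 10 endothelial markers with 2 past the study's threshold, in 6 of 6 markers of border macrophages with 1 past it, in 8 of 9 markers of meningeal fibroblasts with 6 past it and in 8 of 8 measured markers of the choroid plexus with 6 past it. Their mean log2 signals were 7.57 to 7.70 in SAMR1 water, 7.87 to 7.93 in SAMP8 water and 7.99 to 8.08 in SAMP8 TFQA for endothelial cells. They were 4.89 to 4.98, 5.13 to 5.26 and 5.17 to 5.66 for border macrophages, 7.12 to 7.49, 7.95 to 8.28 and 7.50 to 8.05 for meningeal fibroblasts and 8.62 to 9.87, 9.80 to 10.35 and 9.07 to 9.94 for the choroid plexus, in the same order of groups. The choroid plexus scores of the groups overlapped, with SAMR1 water replicate 2 at a score of 0.26 and SAMP8 water replicate 3 at 0.19. Astrocyte markers were positive in 7 of 7 cases with 1 past the threshold, and their mean log2 signals were 11.96 to 12.35, 12.31 to 12.60 and 12.26 to 12.40. Of 7 markers of pericytes and smooth muscle 4 were positive, with 3 higher and 1 lower past the threshold. Beside these lists, 3.40% of all transcripts were higher and 2.70% lower at that threshold. Microglia and macrophages had 8 of 12 positive with 0 past the threshold, and the score of 8 T and NK cell markers overlapped between all groups. A log2 array signal has no true zero, so no marker can be said to be at 0. The part of these cells in the values of the interferon genes was not tested.

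**Figure D4:**
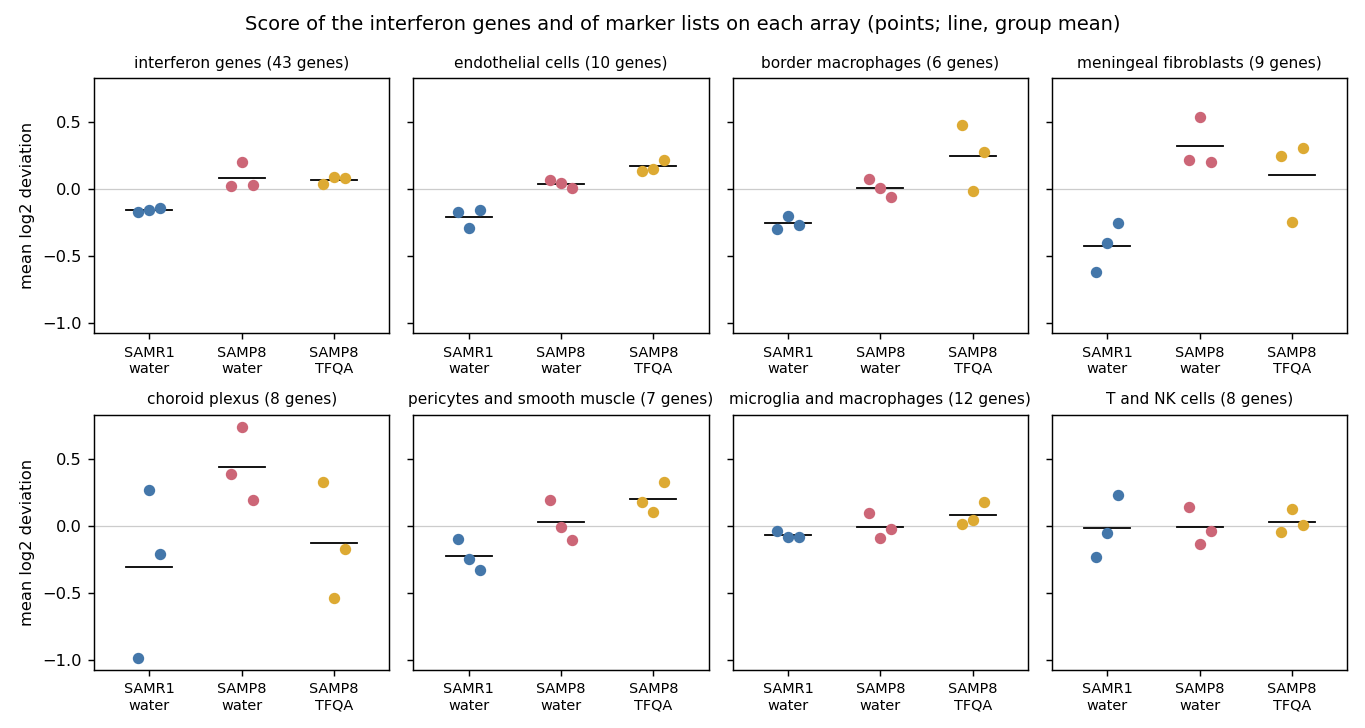
Score of the 43 interferon-stimulated genes and of 7 lists of cell markers on each array (points) with the group mean (line), as the mean log2 deviation from each gene's mean over 9 arrays. The interferon genes, endothelial cells, border macrophages and meningeal fibroblasts are each lowest in SAMR1 water, where the interferon score is -0.17 to -0.14, and the T and NK cell scores overlap between groups.

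In SAMP8 TFQA vs SAMP8 water, 0 of 8 choroid plexus markers were positive with 2 past the study's threshold, and 6 of 9 markers of meningeal fibroblasts were negative with 1 lower. Of astrocyte markers 0 of 7 were positive with 0 past the threshold, and of hippocampal neuron markers 1 of 9 with 1 lower. Striatal neuron markers were positive in 6 of 6 cases with 1 higher. SAMP8 TFQA replicate 2, the array with the high striatal score, had a hippocampal neuron score of -0.50, and TFQA replicates 1 and 3 had -0.08 and -0.01. Its choroid plexus score was -0.54, beside 0.33 and -0.17, and its meningeal fibroblast score -0.24, beside 0.25 and 0.31. Border macrophages had 4 of 6 markers positive with 1 higher, and endothelial cells 5 of 10 with 1 higher. Beside these lists, 3.36% of all transcripts were higher and 3.76% lower at the study's threshold. Oas1g, Ifi27, Oas2 and Zbp1 were lower and Samd9l and Parp9 higher at that threshold in the same comparison. The interferon genes as a whole had 21 positive and 21 negative. The part of those cells in these values was not tested.

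Other genes of the pathway, from lists named for it, were measured in 103 of 116 cases. In SAMP8 water vs SAMR1 water 60 were positive and 43 negative, with a median log2 difference of 0.05, 1 rose and 0 fell, and 12 were higher and 4 lower at the study's threshold. In SAMP8 TFQA vs SAMP8 water 51 were positive and 51 negative, 0 were called by limma at an adjusted p under 0.05, and 6 were higher and 5 lower at the study's threshold. The single gene called was B2m, the constant chain of MHC class I. B2m read 11.89, 11.91 and 11.91 in SAMR1 water, 12.93, 12.86 and 12.72 in SAMP8 water and 13.07, 13.08 and 13.02 in SAMP8 TFQA. All 6 SAMP8 arrays were above the SAMR1 arrays and it rose by 0.93 (standard error 0.14, adjusted p = 0.00655 in limma) in SAMP8 water and by 1.15 (standard error 0.14, adjusted p = 0.00104) in SAMP8 TFQA relative to SAMR1 water.

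Of the 54 measured further interferon-induced genes, 37 were positive in SAMP8 water vs SAMR1 water, with 9 higher and 0 lower at the study's threshold. The shares of all transcripts were 3.40% and 2.70%. Sp100, a protein of nuclear bodies, read 6.45, 6.46 and 6.96 in SAMR1 water, 7.83, 7.27 and 7.37 in SAMP8 water and 7.16, 7.61 and 7.66 in SAMP8 TFQA. The SAMP8 arrays did not overlap with the SAMR1 arrays, and the log2 difference between the water groups was 0.87 (standard error 0.21, adjusted p = 0.181 in limma). The GTPases Tgtp2 and Irgm2 had 0.56 and 0.50 in that comparison and -0.48 and -0.16 in SAMP8 TFQA vs SAMP8 water.

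The interferons themselves, at the head of the pathway, showed no common direction. Of 17 measured ligands 7 were positive and 10 negative in SAMP8 water vs SAMR1 water. At the study's threshold 2 were higher (Ifna4 at 0.50 and Ifna12 at 0.43) and 2 lower (Ifna16 at -0.50 and Ifnb1 at -0.48). Among all transcripts 3.40% were higher and 2.70% lower. Relative to SAMP8 water, the TFQA group was at -0.35 in Ifna4, -0.37 in Ifna12, 0.54 in Ifna16 and -0.17 in Ifnb1. The interferon alpha genes are close copies of each other, so their separate signals are uncertain.

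Of the other signalling genes, Irf3, the factor that induces interferon beta, was at -0.47 and Tlr7, an endosomal RNA receptor, at -0.64 in SAMP8 water vs SAMR1 water, both past the study's threshold. After TFQA relative to SAMP8 water, Irf2, which competes with Irf1 for its sites, was at 0.50 and Tlr7 at 0.53. Ptpn6, a phosphatase that dampens JAK signalling, was at 0.34 and -0.30 in these comparisons. Of 8 measured genes for type II and III interferon receptors, kinases and STAT factors, 0 passed the study's threshold in either, with Tyk2 at -0.25 between the water groups and Jak1 at -0.28 after TFQA.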

How the data were processed

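The authors extracted total RNA with ISOGEN, labelled it with GeneChip WT PLUS reagents, hybridized it to Clariom S Mouse arrays and scanned these on a GeneAtlas. Per the methods, they used SST-RMA of the Transcriptome Analysis Console for normalization, and the submitters' processing notes name RMA and mm10. Each deposited value is a log2 signal, corrected for background, normalized across arrays and summarized over the probes of a transcript. Genes were named through the platform annotation and RefSeq (GRCm38.p6). Of 22206 transcripts 19572 had 1 symbol and 2634 none, and for a gene the transcript with the highest mean was used. The 44 genes, the further lists and the rule for naming genes were chosen with earlier results of these data known.

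In R 4.3.3, limma 3.58.1 (lmFit, eBayes) fitted 1 coefficient per group over 9 arrays, on all transcripts without a filter, with Benjamini-Hochberg adjustment over all of them. A gene rose or fell at an adjusted p under 0.05. The threshold of the study, a fold change over 1.1 and an unadjusted p under 0.05, was counted beside it. Signals on every array were printed for genes past either threshold in any comparison and otherwise for the gene of each role with the smallest p between the water groups. Of the further lists, called genes and up to 3 more by p are named, and Ifnb1, outside this rule, was chosen after its values were seen. The settings varied were a fit of only 2 groups, a replicate block, trended and robust eBayes, renewed quantile normalization and centring on array medians. Further settings were leaving out the dimmest 40% of transcripts, array weights, leaving out each array and a one-way ANOVA of the 2 groups compared, without moderation. The methods also name a one-way ANOVA, and the version used here need not equal theirs. The mean of all transcripts of a gene repeated the main fit, since each of these genes had 1 transcript. Leaving out an array of the group not compared keeps a log2 difference and changes only its standard error and p. Genes within 200 kb were counted after the values were seen. Motifs were searched in RefSeq promoters. The method was tested on simulated data. Precision is limited by the number of arrays, and log2 fold changes of these genes had a median standard error of 0.19.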

Additional observations from a re-analysis of the deposited data

How the results depend on the processing

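The direction of every difference that passed the study's threshold was kept in each alternative that gave a value. With the dimmest 40% of transcripts left out, 19 of the 43 genes remained; 0 were called in SAMP8 water vs SAMR1 water, where Oas1g was among those left out, and the study's threshold was passed by 6 genes there, by 2 between SAMP8 TFQA and SAMP8 water and by 5 between SAMP8 TFQA and SAMR1 water, with a median of -0.09 after TFQA relative to SAMP8 water. Of the 13323 transcripts then tested, 474 were higher and 462 lower at that threshold between the water groups. Between the SAMP8 groups 568 and 461 were, and between SAMP8 TFQA and SAMR1 water 648 and 658. One-way ANOVA without moderation called 0 genes in each comparison. With it, 3 genes passed the study's threshold between the SAMP8 groups, beside 623 higher and 630 lower of all transcripts. Between SAMP8 TFQA and SAMR1 water 5 genes passed, beside 677 and 648 of all transcripts. For the latter, a fit of 2 groups and array weights each called 0. Leaving out 1 array gave 0 to 1 genes called against SAMR1 water in either SAMP8 group. Values follow in the order SAMP8 water against SAMR1 water, TFQA against SAMP8 water and TFQA against SAMR1 water. With 1 array left out, the study's threshold was passed by 7 to 13, 4 to 10 and 7 to 12 genes. Of all transcripts, 672 to 802, 592 to 902 and 770 to 998 were then higher at that threshold. Lower were 533 to 670, 685 to 938 and 789 to 1005. The median log2 difference of the genes was 0.21 to 0.29, -0.065 to 0.0617 and 0.12 to 0.22. Centring turned the sign of Ifnar1 (0.01) and Stat2 (-0.01), and quantile normalization that of Ifi27 (0.00), in 1 comparison each. Centring moved the split of all transcripts past the study's threshold to 624 higher and 757 lower between the water groups and to 916 and 698 after TFQA relative to SAMP8 water. Replicate numbers were not treated as pairs in the main fit. With the group means removed, same-numbered arrays of different groups correlated at 6.15e-05 to 0.1525. With the replicate block, 13, 7 and 12 genes passed the study's threshold. Of all transcripts 802 were then higher and 680 lower, 837 and 921, and 957 and 971, in the same order of comparisons. No other cause of these changes was tested.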
